A study of Coturnix japonica with 42 samples.

Results

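Histone modifiers and chromatin remodellers were taken as the probe sets whose single gene symbol in the array's annotation began with KDM, KMT, SETD, HDAC, SIRT, SMARC, or CHD followed by a digit. Leaving control probe sets aside, the rule found 163 of 38439 probe sets, and these stood for 62 of 13009 genes with a single symbol. The brightest probe set over all arrays stood for each gene. There were 14 KDM, 6 KMT, 7 SETD, 9 HDAC, 6 SIRT, 12 SMARC and 8 CHD genes. A further probe set that named SMARCC1 together with another gene was left out. Of the 62 symbols, 56 also occur in the quail annotation.

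Tissue came from the mediobasal hypothalamus of Japanese quail (Coturnix japonica), all of them males and 8 weeks old. A short day had 6 h light and 18 h dark, to which the birds had been held for 4 weeks, and a long day had 20 h light and 4 h dark. RNA pooled from 3 birds was hybridised to each Affymetrix chicken genome array, with 2 arrays at each of 21 times, so n counts pools and not birds. The second long day (50 to 70 h) and the short day (2 to 22 h) had 6 times and 12 arrays each, and the first long day (26 to 46 h) had 9 times and 18 arrays. Times are those of the labels and were taken to be hours that begin with the short day. Lights-on is not stated.

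Chromatin genes of these families act on the packaging of DNA. Many KMT and SETD proteins add methyl groups to lysines, and many KDM proteins remove them. HDAC and SIRT proteins remove acetyl and related groups, the sirtuins using NAD as a cosubstrate. SMARC and CHD proteins are helicase-like motors, or subunits of their complexes, that use ATP to move or eject nucleosomes. The mediobasal hypothalamus is the part of the quail brain in which lengthening days start the reproductive response.

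Values named signal are the deposited linear intensities after 1 scaling factor per array. All differences are log2 differences between means of times, with 95% intervals and two-sided limma tests adjusted over the 32057 probe sets tested, and a call is an adjusted p under 0.05. All 62 genes passed the filter on low signals. The mean signal ran from 4.83 for KDM2A to 636 for HDAC2, and 7 of the 62 lay below 11.8, the median over arrays of the array median. At least 1 array was at or below the floor of 3.57 in 17 of the 62. Because the probes were designed for chicken, signals of different genes were not set against each other. Bulk RNA cannot separate fewer cells of a type from less RNA per cell.

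The arrays of the second long day were dimmer as deposited, with 2% trimmed means of 25.1 to 35.5 (median 28.1), against 28.8 to 40.8 (median 34.2) on the short day. The actin 3' to 5' ratio had a median of 7.88 on the second long day and 7.65 on the short day. Every pair of arrays on the second long day correlated less than every short-day pair, at 0.812 to 0.8898 against 0.8906 to 0.904. Pairs of the first long day had 0.8901 to 0.907. The pair of 62 h was the lowest of any time, at 0.812, followed by 70 h at 0.868 and 66 h at 0.872. The second array of 62 h had a median correlation of 0.812 with the other arrays, the lowest of any array, and the first had 0.890. Of 8 measured markers of hypothalamic neurons 7 were above the array median, the exception being GNRH1, and none was called on the second long day. In other marker lists some genes were called on the second long day. TSHB and CGA were called higher among 6 tested pars tuberalis and pituitary markers, of which 5 had positive differences. VIM was called higher among 6 astrocyte and tanycyte markers (median log2 difference 0.02, 4 positive). SYT1 was called higher among 8 neuron markers (median 0.01, 4 positive). TTR was called lower among 3 tested choroid plexus markers (median 0.05, 2 positive). None of 6 microglia and leukocyte markers was called, and all 6 were positive (median 0.20). No call was made among 3 tested oligodendrocyte markers (2 positive) or 3 erythrocyte markers (1 positive). The summed signal of the 6 measured astrocyte and tanycyte markers was 4398 to 8210 on the second long day (median 5493), against 3646 to 4537 on the short day (median 4123). The summed signal of the 7 measured pars tuberalis and pituitary markers was 670 to 1870 on the second long day, against 175 to 1229 on the short day. The part of these shifts in the results below was not tested beyond alternative fits. Those had array brightness or the actin or GAPDH 3' to 5' ratio as a covariate, or left out single arrays. Others left out both arrays of 62 h or of 70 h.

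Between the second long day and the short day, 3 of the 62 genes were called, each by its brightest probe set, and all 3 were lower. They were SIRT1, an NAD-dependent deacetylase of histones and transcription factors, SMARCA2 (BRM), a catalytic ATPase of the SWI/SNF remodelling complexes, and SMARCA1 (SNF2L), an ATPase of the ISWI remodellers. The 3 calls are 4.84% of the members, against 1.37% of all probe sets tested, and 0.97% of all probe sets were called lower. Counted over all 143 tested probe sets of the 62 genes, the 3 calls are 2.1%. The second probe sets of SIRT1 and SMARCA1 were not called, and none of the 3 calls held with array brightness as a covariate. The median difference of the 62 genes was 0.01, against 0.04 over all probe sets, and 31 genes (50%) had a positive difference and 31 a negative one, against 56.5% positive over all probe sets. Over the 143 member probe sets, 60.8% were positive and the median was 0.09. At an unadjusted p under 0.05 there were 15 members, 5 higher and 10 lower. They are 24.2%, against 19.6% of the 143 member probe sets and 11.9% of all probe sets. The members are the brightest probe sets of their genes, while all probe sets tested include dim ones. In a separate fit of the 18493 probe sets above the array median on at least 21 arrays, adjusted over those alone, 552 were called. That fit held 55 of the 62 genes. SIRT1, SMARCA1 and SMARCA2 kept their calls in it, and SIRT5 was also called (limma adjusted p = 0.0461). The shares of all probe sets, here and below, are therefore not a background of like signal.

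**Figure D1:**
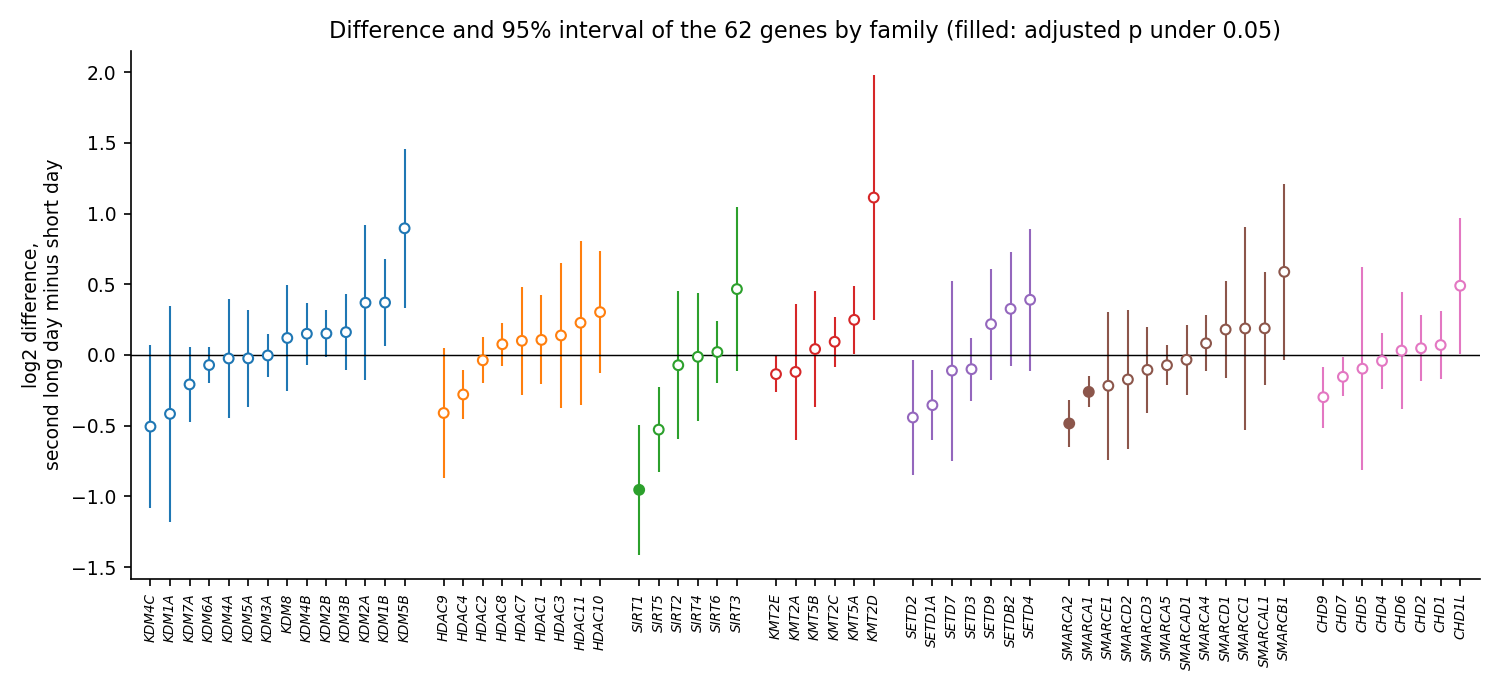
Log2 difference of the second long day minus the short day for each of the 62 genes, grouped by family and ordered by size, with 95% intervals (12 arrays against 12). The 3 filled points, SIRT1, SMARCA2 and SMARCA1, are the genes with an adjusted p under 0.05, and all lie below 0.

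SIRT1 had a signal of 7.29 at its lowest, 27.3 at the median and 36.4 at its highest over the 12 arrays of the second long day, against 33.9, 45.2 and 52.5 over the 12 arrays of the short day. In all, 10 of the 12 arrays of the second long day were below the lowest short-day array, and none was above the highest. The means were 24.8 ± 9.39 on the second long day and 44.2 ± 4.66 on the short day (SD, n = 12 each). SIRT1 was 1.94-fold lower on the second long day (log2 difference -0.95, interval -1.41 to -0.50, limma adjusted p = 0.0194), in the same direction at 6 of 6 hours.

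By hour, the low SIRT1 signals were not confined to both arrays of a time. At 50 h the arrays read 17.7 and 19.4, at 54 h they read 31.1 and 7.29, at 58 h 19.5 and 32.7, and at 62 h 36.4 and 12.4. At 66 h both stood at 26.8 and 27.7, and at 70 h at 33.0 and 34.1. The widest short-day pair was 45.8 and 33.9 at 2 h, which was closer together than the pairs of 54, 58 and 62 h and wider than those of 50, 66 and 70 h. The SIRT1 call was lost without the second array of 54 h (log2 difference -0.78, limma adjusted p = 0.0572) or without the second array of 62 h (-0.82, adjusted p = 0.0606).

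SMARCA2 had a signal of 272.8 at its lowest, 382 at the median and 511.8 at its highest on the second long day, against 435.8, 559 and 673 on the short day. In all, 9 of the 12 arrays of the second long day were below every short-day array. The means were 392 ± 68.6 on the second long day and 546 ± 76.5 on the short day (SD, n = 12 each). SMARCA2 was 1.40-fold lower on the second long day (log2 difference -0.48, interval -0.65 to -0.32, limma adjusted p = 4.78e-04, lower at 6 of 6 hours). Its lowest time was 66 h, with 315 and 386, against 555 and 563 at the same hour of the short day, 18 h. The arrays of 62 h were the widest pair of the second long day, at 511.8 and 272.8. The lower value is that of the second array, which correlated least with the other arrays.

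SMARCA1 read 394 at its lowest, 436 at the median and 478 at its highest on the second long day, against 471, 516 and 574 on the short day. All arrays of the second long day but 1 were below the lowest short-day array. The means were 435 ± 26.1 on the second long day and 522 ± 34.8 on the short day (SD, n = 12 each). SMARCA1 was 1.20-fold lower on the second long day (log2 difference -0.26, interval -0.37 to -0.15, limma adjusted p = 0.00559, lower at 6 of 6 hours). The 6 times of the second long day lay close together, with means between 398 at 54 h and 459.9 at 58 h.

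SMARCA1 and SMARCA2 were called in every fit that left out 1 array. None of the 3 genes was called when the trimmed mean of each array was a covariate, where the log2 differences were -1.26 for SIRT1 (limma adjusted p = 0.0541), -0.29 for SMARCA1 (adjusted p = 0.0786) and -0.37 for SMARCA2 (adjusted p = 0.156). With the median of each array as the scale, 7 of the 62 genes were called, all lower, and on the deposited values without scaling 15 were. Of all 32057 probe sets tested, 919 and 3510 were called in those fits, 94.5% and 98.6% of them lower. Those scales also moved the median of all probe sets, to -0.07 and -0.19. With the median as the scale 19 of the 62 differences were positive, and on the deposited values 11. Without the variance trend SMARCA2 alone was called. Without the first array of 62 h the calls also took in HDAC9, SETD1A and SIRT5. In that fit the second array, which correlated least with the others, stood alone for 62 h.

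**Figure D2:**
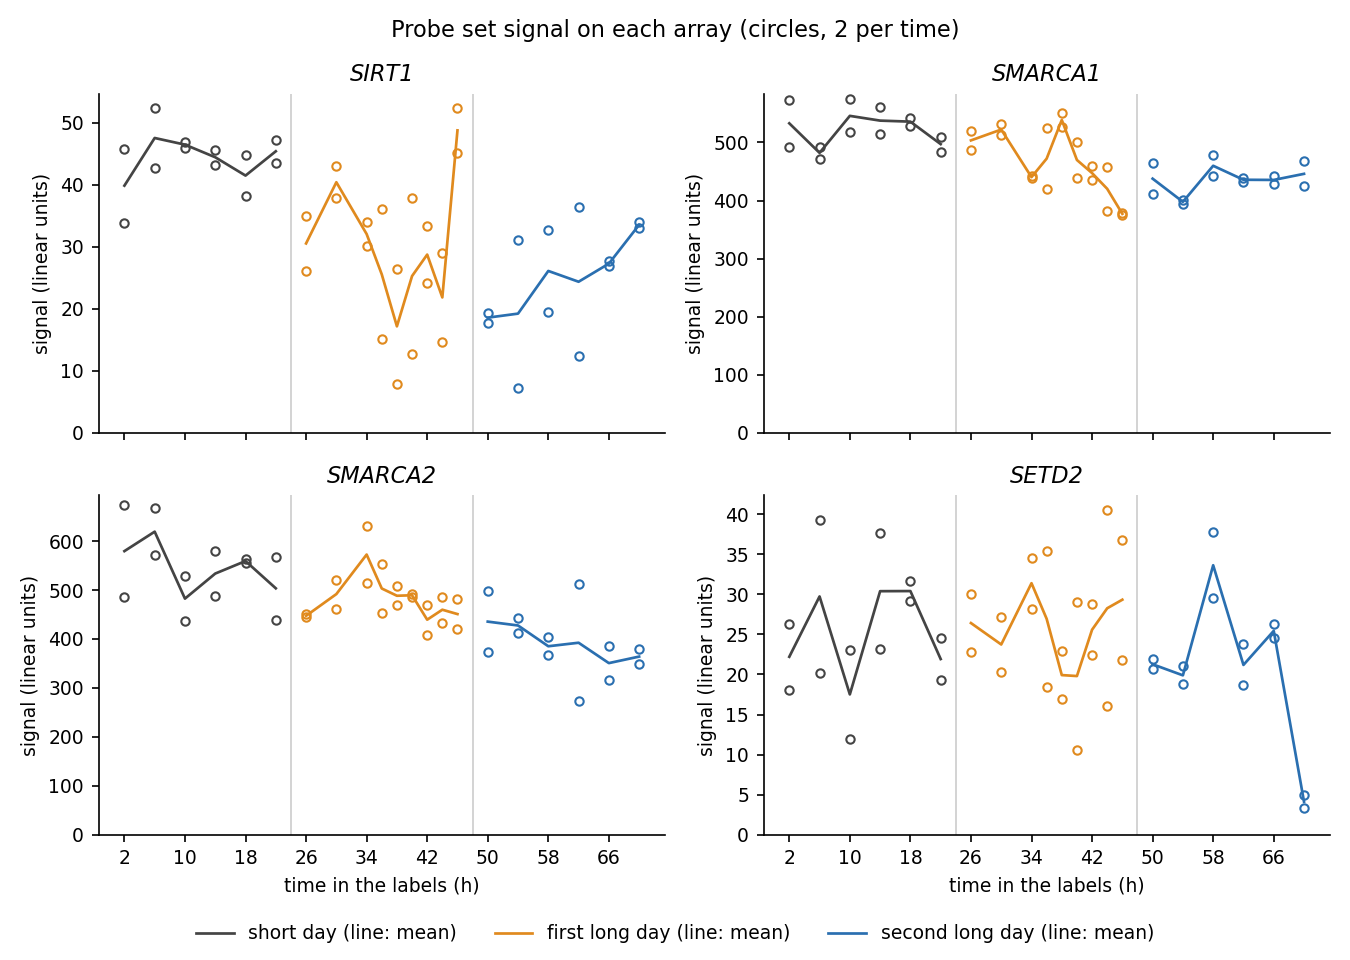
Signal of SIRT1, SMARCA1, SMARCA2 and SETD2 on each array (circles) against the time in the labels in hours, with lines through the mean of both arrays of a time and colours for the 3 days. SIRT1, SMARCA1 and SMARCA2 sit lower on the second long day than on the short day, and both SETD2 arrays of 70 h, at 4.94 and 3.28, lie below every other array.

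The calls rested on a single probe set per gene. The second probe set of SIRT1, with a mean signal of 21.2, read 23.2 ± 6.55 on the second long day and 19.9 ± 6.45 on the short day (SD, n = 12 each), a log2 difference of 0.26 (interval -0.17 to 0.70, limma adjusted p = 0.686). The second probe set of SMARCA1, with a mean signal of 297, read 291.5 ± 52.9 on the second long day and 281.5 ± 30.7 on the short day, a log2 difference of 0.04 (interval -0.13 to 0.21, adjusted p = 0.911). For both genes the interval of the second probe set lay wholly above that of the brightest one, and the difference between probe sets was not tested. The second probe set of SMARCA2 was at the floor on 40 of 42 arrays and was not tested. With the mean over a gene's tested probe sets in place of the brightest, SIRT1 had a log2 difference of -0.35 (adjusted p = 0.35) and SMARCA1 of -0.11 (adjusted p = 0.333). SMARCA2 alone of the 62 genes was called in that fit. It has 1 tested probe set, so the mean is the same probe set and its call is no check by another.

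Across the families, 44 genes had several probe sets and 18 had 1. Of the 81 tested probe sets that were not the brightest of their gene, none was called in any of the 8 comparisons. Over all 143 tested probe sets, 9.09% had an unadjusted p under 0.05 in the comparison over hours 10 to 22 of the first long day, and 9.09% in that between both long days. For the 81, the correlation with the brightest probe set of the gene over the 21 time means had a median of 0.03. It ran from -0.46 to 0.63. The sign of the difference between the second long day and the short day was shared in 38 of the 81. CHD7, a remodeller of the CHD family, had 7 tested probe sets with log2 differences from -0.32 to 0.43, none of them called.

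**Figure D3:**
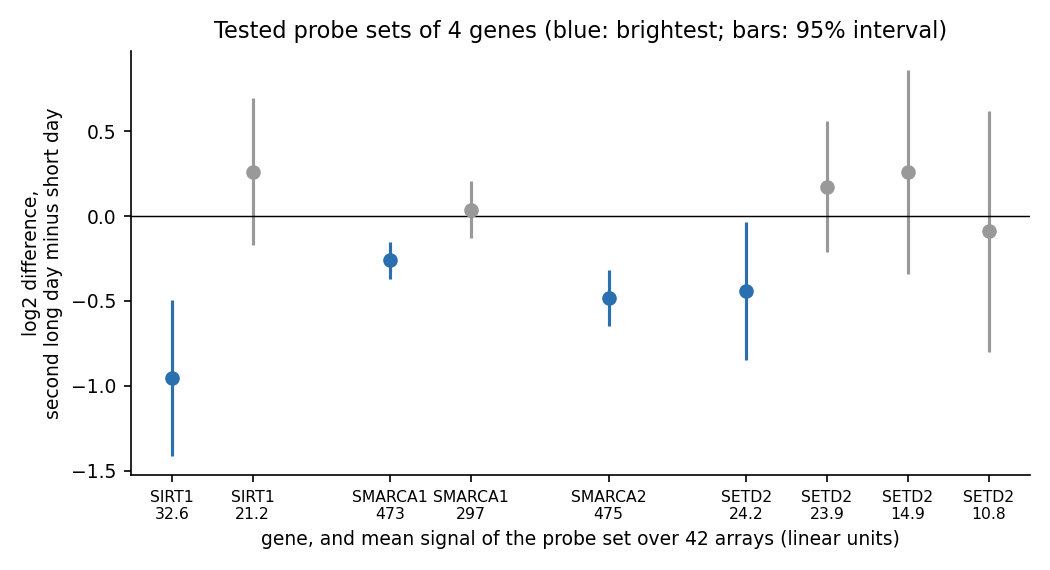
Log2 difference of the second long day minus the short day, with 95% intervals, for each tested probe set of SIRT1, SMARCA1, SMARCA2 and SETD2, ordered within a gene by mean signal. Blue marks the brightest probe set, and the grey probe sets of SIRT1 and SMARCA1, at 0.26 and 0.04, lie above the blue ones, at -0.95 and -0.26.

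The other deacetylases were not called. SIRT5, a mitochondrial desuccinylase named here after its values were seen, came nearest. Its signal was 19.1 at its lowest, 39.6 at the median and 63.1 at its highest on the second long day, against 47.3, 58.5 and 69.1 on the short day (log2 difference -0.53, interval -0.83 to -0.23, limma adjusted p = 0.0628). SIRT5 was lower at 6 of 6 hours, and 8 of the 12 arrays of the second long day were below the lowest short-day array. It passed the threshold in 11 of 58 alternatives and missed it in 47. Those passed were median centring, quantile normalization, a stricter filter, the deposited values and fits without 1 of 7 single arrays. Both arrays of 36 h and both of 42 h are among these 7, though arrays of the first long day are not in this comparison.

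The remaining sirtuins showed no common direction. SIRT3, a mitochondrial deacetylase, averaged 17.3 ± 5.74 on the second long day and 12.7 ± 5.71 on the short day (SD, n = 12 each, log2 difference 0.47, limma adjusted p = 0.555). SIRT6, a nuclear sirtuin, averaged 119 ± 23.3 and 118 ± 23.7 on the same days (log2 difference 0.02, interval -0.20 to 0.24). SIRT2, a largely cytoplasmic deacetylase, had a log2 difference of -0.07 with a wide interval, -0.60 to 0.45, and its arrays at 66 h read 17.3 and 1.31, against 44.7 and 24.8 at 18 h of the short day.

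Among the 9 HDAC genes 6 had a positive difference and 3 a negative one, and 0 were called. HDAC4, a class IIa enzyme that shuttles between nucleus and cytoplasm, averaged 118 ± 18.2 on the second long day and 144 ± 22.5 on the short day (SD, n = 12 each, log2 difference -0.28, interval -0.45 to -0.11, limma adjusted p = 0.1). It was lower at 4 of 6 hours, most clearly at 50 h, with 101.3 and 98.35 against 163 and 152 at 2 h. HDAC2, a class I enzyme, averaged 641 ± 62.7 on the second long day and 664 ± 112 on the short day (log2 difference -0.04, interval -0.20 to 0.13). HDAC8, also class I, had a log2 difference of 0.08 (interval -0.08 to 0.23). HDAC7, of class IIa, had one of 0.10 (interval -0.28 to 0.48), and HDAC11, the class IV enzyme, was at the floor on 13 of 42 arrays.

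None of the 14 KDM genes was called, and 7 differences were positive and 7 negative. KDM5B, a demethylase of histone H3, had the largest, with signals of 1.95 at its lowest, 6.21 at the median and 22.0 at its highest on the second long day, against 1.91, 3.15 and 14.3 on the short day (log2 difference 0.90, interval 0.33 to 1.46, limma adjusted p = 0.113). At the floor were 2 of the 12 arrays of the second long day, against 8 of the 12 short-day arrays. Both arrays were high at 58 h with 20.5 and 22.0, at 70 h with 20.1 and 14.8 and, on the first long day, at 36 h with 19.6 and 11.2. Only 1 array of the pair was high at 46 h, with 2.75 and 21.4, at 42 h, with 10.6 and 2.83, and at 22 h of the short day, with 3.03 and 14.3.

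KDM6A, a demethylase that removes the polycomb mark from histone H3, averaged 511 ± 70.3 on the second long day and 534 ± 36.1 on the short day (SD, n = 12 each), a log2 difference of -0.07 (interval -0.20 to 0.06). KDM4C, a demethylase of histone H3, had a log2 difference of -0.51 (interval -1.08 to 0.07) between those days. KDM8, a protein with a JmjC domain, had one of 0.12 (interval -0.26 to 0.50). KDM2A was at the floor on 23 of 42 arrays, so its level was mostly not measured.

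The KMT and SETD genes were not called either, with 4 of 6 KMT and 3 of 7 SETD differences positive. SETD1A, a writer of methylation at active promoters, averaged 40.5 ± 9.49 on the second long day and 51.6 ± 11.6 on the short day (SD, n = 12 each, log2 difference -0.35, limma adjusted p = 0.170), lower at 6 of 6 hours. KMT2E averaged 434 ± 65.9 on the second long day and 473 ± 38.3 on the short day (log2 difference -0.14, adjusted p = 0.381). KMT2C, a writer at enhancers, had a log2 difference of 0.09 (interval -0.08 to 0.27) and KMT2A, a promoter writer, one of -0.12 (interval -0.60 to 0.36). SETD3, a methyltransferase of actin, had one of -0.10 (interval -0.32 to 0.12).

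KMT2D, an enhancer writer named here after its values were seen, had the largest positive difference of the 62 genes. Its signal was 3.32 at its lowest, 23.6 at the median and 46.1 at its highest on the second long day, against 2.17, 4.57 and 22.1 on the short day (log2 difference 1.11, interval 0.24 to 1.98, limma adjusted p = 0.249). The groups overlapped, and 6 of the 12 arrays of the second long day were above the highest short-day array.

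Of the remodellers beside SMARCA1 and SMARCA2, none was called. SMARCA4 (BRG1), the ATPase that SWI/SNF complexes use in place of SMARCA2, averaged 106 ± 15.9 on the second long day and 100.2 ± 16.4 on the short day (SD, n = 12 each, log2 difference 0.08, interval -0.12 to 0.28). SMARCA5 (SNF2H), the other ISWI ATPase, averaged 267 ± 25.5 and 281 ± 36.3 on the same days (log2 difference -0.07, interval -0.21 to 0.07). The interval of SMARCA4 lay above that of SMARCA2, and the interval of SMARCA5 overlapped that of SMARCA1. Neither difference between paralogs was tested. Both paralogs are named here after their values were seen. SMARCB1, a core SWI/SNF subunit, was at the floor on 15 of 42 arrays.

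Among the CHD genes, CHD1L, a remodeller recruited by poly(ADP-ribose), averaged 23.3 ± 7.80 on the second long day and 15.96 ± 3.13 on the short day (SD, n = 12 each, log2 difference 0.49, limma adjusted p = 0.412), higher at 6 of 6 hours. CHD9 averaged 135 ± 30.0 on the second long day and 165 ± 33.6 on the short day (log2 difference -0.30, adjusted p = 0.199). The brightest probe set of CHD7 averaged 354 ± 63.3 on the second long day and 391 ± 44.0 on the short day (log2 difference -0.15, adjusted p = 0.337). CHD5, a remodeller of neurons, was dim, with a mean signal of 10.0.

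Within the second long day, 1 of the 62 genes had a daily profile that passed the test. It was SETD2, the methyltransferase that marks the bodies of transcribed genes through histone H3 (moderated F = 9.17, limma adjusted p = 0.0352). The call compares with 0.0499% of all probe sets, and 10 members had an unadjusted p under 0.05 (16.1%, against 9.31% of all). Over the 143 member probe sets these shares were 0.699% called and 11.2% unadjusted. SETD2 read 20.6 and 21.9 at 50 h, 18.8 and 21.02 at 54 h, 29.5 and 37.8 at 58 h, 23.8 and 18.6 at 62 h, 26.3 and 24.6 at 66 h, and 4.94 and 3.28 at 70 h. Both arrays of 70 h were below all 40 other arrays, of which the lowest read 10.5.

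At 70 h SETD2 was set against the same hour of the short day, where it read 19.3 and 24.6. The log2 difference was -2.37 and was not called (limma adjusted p = 0.0797). The second array of 70 h, at 3.28, was below the floor of 3.57 and entered the fit at the floor. Averaged over the 6 hours, SETD2 was 20.9 ± 9.47 on the second long day and 25.4 ± 8.03 on the short day (SD, n = 12 each, log2 difference -0.44, adjusted p = 0.367). The difference between the daily profiles of both days was not called (adjusted p = 0.529). The profile call was lost without both arrays of 70 h (adjusted p = 0.86), without either of them (0.127 and 0.265), and without the second array of 58 h (0.0581). It was also lost on the deposited values (0.0755), with a floor at the 40th percentile (0.222), with the GAPDH 3' to 5' ratio as a covariate (0.103), with the mean over probe sets (0.43) and in the compared arrays alone (0.773).

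SETD2 had other probe sets, and none of their profiles was called. The next brightest, whose mean signal of 23.9 was close to the 24.2 of the brightest, read 23.8 and 28.4 at 70 h, and its profile had an adjusted p of 0.902 in the limma fit. The third in brightness read 18.9 and 20.5 (adjusted p = 0.766). The dimmest tested one, at the floor on 8 of 42 arrays, read 3.52 and 12.1 (limma adjusted p = 0.724). Its first array of 70 h was below the floor of 3.57, as was the second array of the brightest probe set.

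On the short day, 0 of the 62 genes had a daily profile that passed the limma test, against 0.0624% of all probe sets, and 1, SMARCC1, had an unadjusted p under 0.05 (1.61%, against 4.31% of all). SMARCC1, a core SWI/SNF subunit, had an adjusted p of 1. No member had a profile that differed between the second long day and the short day, against 0.00312% of all probe sets, and 3 had an unadjusted p under 0.05 (4.84%, against 5.78% of all). The profiles of SIRT1, SMARCA1 and SMARCA2 were not called on either day, with adjusted p from 0.786 to 0.914 on the second long day and of 1 on the short day. A p that misses the threshold does not show that a profile is flat in the tissue.

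Over hours 10 to 22 of the first long day, 0 of the 62 genes were called against the short day, as were 0.0561% of all probe sets, and 7 members had an unadjusted p under 0.05 (11.3%, against 5.63% of all). This comparison and that of the second long day use the same short-day arrays. SMARCA1 came nearest, at 451 ± 62.4 on the first long day and 529 ± 29.1 on the short day (SD, n = 8 each, log2 difference -0.24, limma adjusted p = 0.395). Its arrays read 442 and 438 at 34 h, 527 and 550 at 38 h, 460 and 435 at 42 h, and 375 and 379 at 46 h, the lowest time of the 21 for this gene.

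SIRT1 averaged 31.7 ± 13.5 on the first long day and 44.5 ± 2.91 on the short day over the same hours (SD, n = 8 each, log2 difference -0.65, limma adjusted p = 0.836). Its arrays read 34.0 and 30.1 at 34 h, 7.84 and 26.5 at 38 h, 33.4 and 24.1 at 42 h, and 45.1 and 52.5 at 46 h. The pair of 40 h, which is not in this comparison, read 37.8 and 12.7. SMARCA2 had a log2 difference of -0.10 in this comparison. KDM4C averaged 8.56 ± 2.62 on the first long day and 15.1 ± 4.50 on the short day (log2 difference -0.81, adjusted p = 0.840), and KMT2D 16.9 ± 5.07 and 7.63 ± 7.31 (log2 difference 1.40, adjusted p = 0.760).

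Early in the first long day, over hours 2 and 6, 0 of the 62 genes were called, against 0.00312% of all probe sets, and 5 had an unadjusted p under 0.05 (8.06%, against 5.32% of all). CHD1L read 8.16 and 21.3 at 26 h and 2.02 and 5.46 at 30 h, against 16.5 and 22.6 at 2 h and 14.9 and 18.7 at 6 h of the short day (log2 difference -1.23, limma adjusted p = 0.767). The arrays of 30 h were the lowest of CHD1L. SMARCA2 averaged 469.5 ± 35.4 on the first long day and 599 ± 88.9 on the short day at these hours (SD, n = 4 each, log2 difference -0.34, adjusted p = 0.874). HDAC7 averaged 15.9 ± 7.03 and 23.8 ± 1.27 on the same days (log2 difference -0.72, adjusted p = 0.915).

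Between the second and the first long day, at the 6 hours sampled on both, 0 of the 62 genes were called, against 0.0905% of all probe sets, and 7 had an unadjusted p under 0.05 (11.3%, against 7.86% of all). SMARCA2 had the smallest p, at 392 ± 68.6 on the second long day and 482 ± 58.6 on the first (SD, n = 12 each, log2 difference -0.31, limma adjusted p = 0.158), and was lower at 6 of 6 hours. Without the first array of 62 h, the array that correlated least with the others stood alone for that time. The log2 difference of SMARCA2 was then -0.38. SIRT1 had a log2 difference of -0.42 and SMARCA1 of -0.11. CHD1L (0.75, adjusted p = 0.306), SETD4 (0.74, adjusted p = 0.344) and SIRT3 (0.67, adjusted p = 0.552) had positive differences, and SETD4 was at the floor on 22 of 42 arrays.

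Taken hour by hour against the same hour of the short day, 0 of the 62 genes were called at any of 15 times of the long days and 0.0218% of all tests of a probe set at a time passed. The number of members with an unadjusted p under 0.05 ran from 2 to 5 on the first long day and from 3 to 8 on the second, together 7.53% of the members' tests, against 5.55% of all. The largest share was 12.9%, at 66 h, against 6.55% of all probe sets at that time. At 62 h, the time with the least correlated pair of arrays, the shares were 11.3% of members and 10.2% of all probe sets.

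**Figure D4:**
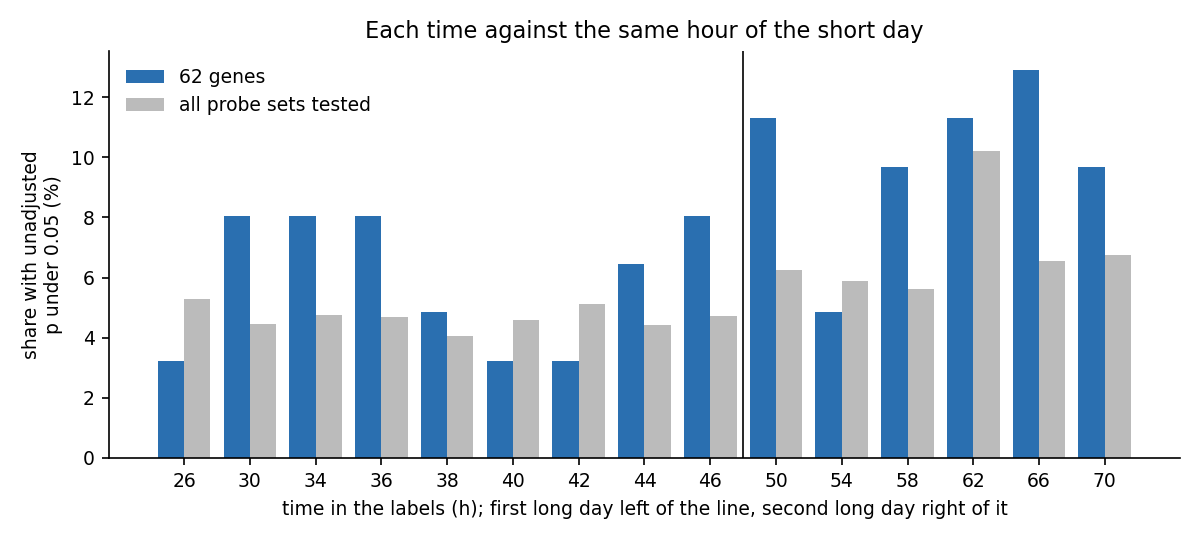
Share of the 62 genes (blue) and of all 32057 probe sets tested (grey) with an unadjusted p under 0.05, in percent, at each time of the long days against the same hour of the short day. The members' share runs from 3.23% to 12.9%, and none of these differences passed after adjustment.

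Over all 21 times, 0 of the 62 genes passed the limma test for any difference, against 0.221% of all probe sets, and 9 had an unadjusted p under 0.05 (against 6.95% of all). The smallest were SETD2 (adjusted p = 0.236), SMARCA1 (0.390), KDM5B (0.459) and SMARCA2 (0.471). The brightest probe sets of the 62 genes varied less than all probe sets tested. Their median SD between both arrays of a time was 0.40 on the log2 scale, against 0.63 over all probe sets, and the median range of the 21 time means was 1.10, against 1.62. This difference in spread was not tested. The members are the brightest probe sets of their genes, while all probe sets tested include dim ones. No probe sets of like signal were compared, so the values cannot tie the smaller spread to these genes.

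Over the 21 time means, the 1891 pairs of members had a median correlation of -0.01, and the 272 pairs within a family had a median of -0.02. SMARCA1 and SMARCA2 had a correlation of 0.51, SIRT1 and SMARCA2 of 0.42, and SIRT1 and SMARCA1 of 0.34. SETD2 had a correlation of 0.38 with SMARCA2, 0.08 with SIRT1 and 0.04 with SMARCA1. All these points share the same arrays and scaling. SIRT1, SMARCA1 and SMARCA2 are also the members called lower on the second long day than on the short day. The times of both days are among the 21, so this selection by itself favours positive correlations among SIRT1, SMARCA1 and SMARCA2. Their correlations therefore cannot show that they vary together beyond that difference between days. The median of the 62 genes, each centred on its own mean, stayed between -0.06 at 66 h and 0.07 at 36 h.

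**Figure D5:**
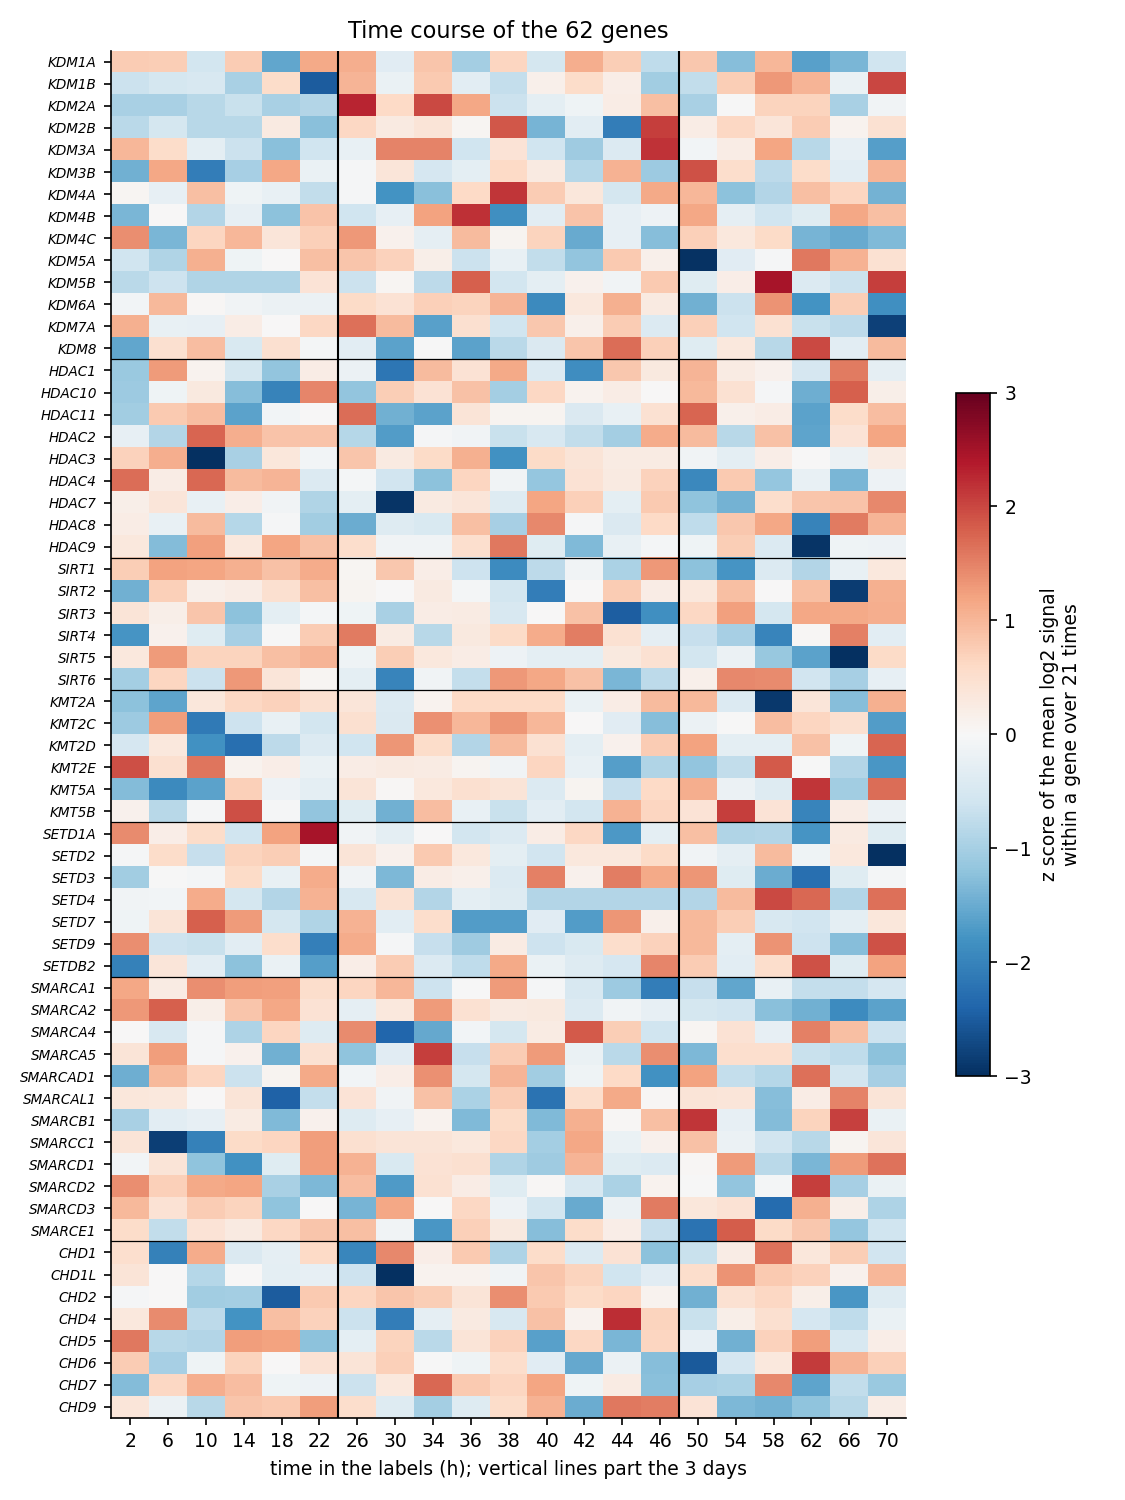
Mean log2 signal of each of the 62 genes at the 21 times, as a z score within the gene, with times in hours from left to right and the 7 families from top to bottom. No column is red or blue throughout, the SETD2 row has its darkest blue at 70 h, and the SMARCA1 and SMARCA2 rows are below 0 at all 6 times of the second long day, with the darkest blue of SMARCA1 at 46 h of the first.

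Chromatin genes outside the rule were described by 7 lists. They were acetyltransferases, polycomb and other methyltransferases, demethylase-related JmjC genes, corepressor complexes, other remodelling subunits, DNA methylation and readers, and NAD synthesis and use, with 106 genes tested. Between the second long day and the short day, 4 of the 106 were called (3.77%, against 1.37% of all probe sets), all lower. These 4 calls also rest on the brightest probe set of each gene, so the share of all probe sets is again not a background of like signal. They were not followed through the alternatives, among them array brightness as a covariate and the mean over probe sets. BAZ2B, a bromodomain protein that partners ISWI ATPases, averaged 91.7 ± 20.1 on the second long day and 138 ± 21.7 on the short day (SD, n = 12 each, log2 difference -0.61, limma adjusted p = 2.33e-04). ARID1B, a subunit of SWI/SNF, averaged 684 ± 64.4 and 809 ± 68.1 on the same days (log2 difference -0.24, adjusted p = 0.0198). CBX7, a polycomb reader of histone methylation, averaged 285 ± 107 and 434 ± 91.7 (log2 difference -0.68, adjusted p = 0.0152). MTA1, a subunit of the NuRD deacetylase complex, averaged 132 ± 27.8 and 188 ± 44.4 (log2 difference -0.51, adjusted p = 0.0316).

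By list, 2 of 23 other remodelling subunits, 1 of 18 corepressor genes and 1 of 17 DNA methylation and reader genes were called. No call was made among 12 acetyltransferases, 23 polycomb and other methyltransferases, 7 JmjC genes or 6 genes of NAD synthesis and use, NAD being the cosubstrate of SIRT1. Among these NMRK1, a nicotinamide riboside kinase, had a log2 difference of -0.68 (interval -1.24 to -0.13, limma adjusted p = 0.271) and PARP1, a consumer of NAD, one of 0.21 (adjusted p = 0.502). DOT1L, a histone methyltransferase, had one of -0.50 (adjusted p = 0.122) and EED, a polycomb subunit, one of -0.22 (adjusted p = 0.164). UHRF2, a reader of DNA methylation, had one of 0.33 (adjusted p = 0.135). KAT2B, an acetyltransferase, had one of 0.20 (adjusted p = 0.340), NCOA1 one of -0.19 (0.335), RCOR3 one of -0.16 (0.195), PHF2 one of -0.19 (0.435) and RIOX1 one of -0.66 (0.590). None of the 106 was called in the other 7 comparisons.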

How the data were processed

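The authors deposited 1 linear intensity per probe set and array, computed in GCOS 1.2 per the submitters' processing notes. The scaling target is not given in the sources used here. Each of the 42 arrays was multiplied by 1 factor (0.809 to 1.31) to a 2% trimmed mean of 32.98. The 96 control probe sets were left out, log2 was taken after a floor of 3.57 (the arrays' 25th percentile, at its median), and probe sets above their array's median on at least 2 arrays were kept, which left 32057. Means ± SD are of scaled signals before the floor. Fits used limma 3.58.1 in R 4.3.3 with 1 mean per time, a variance trend and 21 residual degrees of freedom, and were tested on simulated data. Two-sided p-values were adjusted by Benjamini-Hochberg over all probe sets tested. With 2 pools a time, p-values measure the spread between pools. The number of arrays limits the precision.

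The comparisons were second long day against short day, first long day against short day (hours 10 to 22, and 2 and 6), second against first long day, the daily profiles of the short and second long day and their difference, any difference among the 21 times, and single hours. Times 36, 40 and 44 h, with no short-day counterpart, were set against the average of the short-day times before and after. The members and lists were chosen with earlier results of these data known. Named were SIRT1 and SETD2, every called member, the 3 members per family with the smallest p over the 21 times, the brightest and dimmest per family, genes whose probe sets are compared, and from the lists called genes and the 2 smallest p per list. Gene symbols come from the platform annotation and were matched to the quail assembly's annotation by name.

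Alternatives were the deposited scale, median centring, quantile normalization, other floors and filters, no variance trend, the replicate number as a block, array brightness and 3' to 5' ratios as covariates, the mean over probe sets, the compared arrays alone, and each array left out. Leaving out both arrays of 62 h or of 70 h was added after seeing the data. No sequences are printed.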

Additional observations from a re-analysis of the deposited data

How the results depend on the processing

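Of the 62 genes 7 were dimmer than the median array median, and each time had 2 arrays. Over 58 alternatives the call between the second long day and the short day was kept in 57 for SMARCA2, 54 for SMARCA1 and 52 for SIRT1, and the profile call of SETD2 in 49. Of the 58, 42 only left out 1 array, among them arrays of the first long day, which are not in these comparisons. The calls not kept numbered 1 for SMARCA2, 4 for SMARCA1, 6 for SIRT1 and 9 for SETD2. Of these, 0, 0, 2 and 3 fell among those 42 fits. SETD2 also lost its call without both arrays of 70 h, and the rest fell under changes of method. The replicate numbers did not pair the samples, as deviations of same-numbered arrays had correlations from -0.04 to 0.04 over 210 pairs of times. With the replicate number as a block, 432 probe sets and 3 members were called between the second long day and the short day, and no call of a named gene changed. For that comparison, members and all probe sets called numbered 3 and 438. They were 15 and 3510 as deposited (98.6% of those calls lower, against 71%), 7 and 919 with median centring (94.5% lower), 1 and 149 without the variance trend, 0 and 150 with array brightness as a covariate, and 1 member with the mean over probe sets (57.3% of calls lower, against 71%). All probe sets called were 272 with the compared arrays alone and 272 without both arrays of 70 h. SMARCA1 also lost its call under quantile normalization (-0.18, adjusted p = 0.089) and SIRT1 without a filter (adjusted p = 0.0529). CHD7 reversed, to 0.052, with the mean over probe sets. In the second against the first long day (0 members, 29 probe sets), as deposited gave 4 and 945, median centring 78, the stricter filter (above the median on at least 21 arrays) 45 and no trend 9 probe sets. For hours 2 and 6 of the first long day (1 probe set), counts were 14 as deposited, 2 with quantile normalization, a floor at the 40th percentile (the higher floor) or no filter, 3 with the brightness or actin covariate, and 0 without the trend or in the compared arrays alone. The number of members with a profile call on the second long day, 1 (SETD2), went to 0 as deposited, with the GAPDH covariate, with the mean over probe sets, in the compared arrays alone and without both arrays of 70 h, and the SETD2 call was also lost, at an adjusted p of 0.222, with the higher floor. All probe sets called for that profile (16) were 10 as deposited, 32 with a floor of 1, 126 with the higher floor, 115 without a filter, 33 without the trend, 2 in the compared arrays alone, 9 without both arrays of 62 h and 4 without both of 70 h. The difference of profiles (1 probe set) gave 5 with quantile normalization, 4 with a floor of 1, 2 with the higher floor, 20 without a filter, 3 with the stricter filter, 9 without the trend, 3 with the actin covariate and 4 without both arrays of 62 h. The short-day profile (20) gave 3 in the compared arrays alone, and any difference among the 21 times (71) gave 197 as deposited and 32 without the trend. At single hours, 1 member was called with the stricter filter, SETD2. Leaving out each array gave 2 to 6 members and 316 to 746 probe sets between the second long day and the short day, 0 to 1 and 20 to 142 for the second against the first long day, 0 to 3 and 10 to 541 for the second-long-day profile, 0 to 1 and 1 to 123 for the difference of profiles, 0 to 1 and 60 to 165 for the 21 times, 0 to 4 members for single hours, and 0 to 5 probe sets for hours 2 and 6 of the first long day. All of these highest values but the last came without the first array of 62 h, and 1 member was called at single hours without the first array of 18 h or either array of 40 h. Without the first array of 62 h, the second array, which correlated least with the others, stood alone for that time. The causes were not tested.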
